A study of Mus musculus with 6 samples.

Results

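The 10 genes followed here encode the receptors, ligands and best known target genes of the Notch pathway, measured in the non-cardiomyocyte (non-CM) fraction of adult mouse hearts. They are the receptors Notch1, Notch2, Notch3 and Notch4, the ligands Dll4, Jag1 and Jag2, and the targets Hey1, Heyl and Hes1. They were taken by gene symbol, in a choice made with earlier results of these data known. All 10 had a row among the 24062 symbols of the count table. All mice carried Tw2-CreERT2 and R26-tdTO, so that tamoxifen lets a recombinase made under Twist2 control switch on the red protein tdTomato for good in cells that use Twist2 at that time, and in their descendants. Dosing with tamoxifen began at 8 weeks, and hearts were processed 10 days later from mice whose recorded age was 9 weeks. The non-CM fraction was sorted on tdTomato and on the dye Mitoview633 into a tdTomato-positive group (Tw2+) and a tdTomato-negative group (Tw2-), with 3 libraries per group that the design text calls biological replicates. The sources used here do not give the number of hearts behind a library. A tdTomato-negative cell is one the reporter did not mark, which need not be one without Twist2. Titles number the samples 1 to 3, but in each group 1 column of the table has no number and is called unnumbered; where 3 values of a group follow each other below, they are libraries 2, 3 and unnumbered, in that order.

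Notch receptors are cell-surface proteins that are cut when a ligand on a neighbouring cell binds and pulls on them. The released intracellular part enters the nucleus and, with the DNA-binding protein Rbpj, switches on genes such as those of the Hes and Hey families, which encode basic helix-loop-helix repressors. In blood vessels, Dll4, Jag1, Notch1 and Notch4 are known from endothelial cells, where the pathway controls sprouting and arterial identity. Notch3, with Heyl as one of its targets, is known from the pericytes and smooth muscle cells that wrap the vessels.

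Total counts per library ranged from 11746696 to 16447098. Levels are given as CPM, counts divided by library size after scaling of that size by the TMM method. Each of the 10 genes had at least 40 counts in every library, and 3 counts corresponded to 0.161 to 0.302 CPM. The 2 sorted populations differed in their makeup. The summed level of 13 macrophage and monocyte markers was 2588 to 5706 CPM in Tw2- and 137 to 325 CPM in Tw2+, and that of 13 fibroblast markers was 40099 to 59695 CPM in Tw2- and 65230 to 78558 CPM in Tw2+. Cardiomyocyte markers, which a non-CM fraction should lack, were present in both groups, with 12 of them summing to 834 to 1563 CPM in Tw2- and 158 to 516 CPM in Tw2+. Markers of vascular endothelium, which bear on many of the genes below, did not separate the groups cleanly. Their 14 members summed to 2925 CPM in Tw2- 2, 2720 CPM in Tw2- 3 and 1084 CPM in the unnumbered Tw2- library, against 821 CPM in Tw2+ 2, 1362 CPM in Tw2+ 3 and 690 CPM in the unnumbered Tw2+ library. Tw2+ 3 thus held more endothelial transcript than the unnumbered Tw2- library, and none of the 14 markers was at 0 in any library.

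Of the 10 genes, only Hey1 differed between Tw2+ and Tw2- in edgeR's quasi-likelihood test, at a Benjamini-Hochberg adjusted p under 0.05 over 13180 tested genes, and it was lower in Tw2+. Across all tested genes 18.2% were called, 10.8% lower and 7.41% higher, so 1 lower call and 0 higher calls among 10 genes is close to the background. In all, 9 of the 10 genes were fitted below 0, with a median log2 fold change (Tw2+ over Tw2-) of -0.69 against 0.0019 for all tested genes. An unadjusted p under 0.05 was reached by 5 of the 10 and by 36.7% of all tested genes. DESeq2 called 4 of them lower and 0 higher, with 13.9% of all genes called lower and 11.9% higher by that tool. The groups did not overlap in CPM for Hey1, which was lower, and Jag1, which was higher, where 37.4% of all tested genes did not overlap in either direction. In bulk samples, fewer cells of a type and less RNA per cell cannot be told apart.

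The count of calls rested on single libraries. With Tw2+ 3 left out, edgeR called 6 of the 10 lower (Notch4, Dll4, Jag2, Hey1, Heyl and Hes1) and 1 higher (Jag1), but it then called 21.4% of all tested genes lower and 20.7% higher. With the unnumbered Tw2- library left out 3 (Dll4, Jag2 and Hey1) were lower, against 10.5% of all genes. With Tw2- 2, Tw2- 3, Tw2+ 2 or the unnumbered Tw2+ library left out edgeR called 0 of the 10, where 6.48%, 6.10%, 6.13% and 6.53% of all genes, respectively, were called lower. Other settings gave 3 lower without a filter on low counts (9.72% of all genes), 5 with scaling to the fibroblast markers (22.9%), 7 with Tw2+ 3 and the unnumbered Tw2- library both removed (22.7%) and 0 at an adjusted p under 0.01 (5.32%). Only Hey1 was called lower with RLE (9.98%), upper-quartile (10.3%) or library-size scaling (13.0%). The same held in limma-voom, where 1342 of 13180 genes were lower. On the 4 numbered libraries it was 5 with the replicate number as a block (16.3%) and 2 without that block (8.83%).

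**Figure D1:**
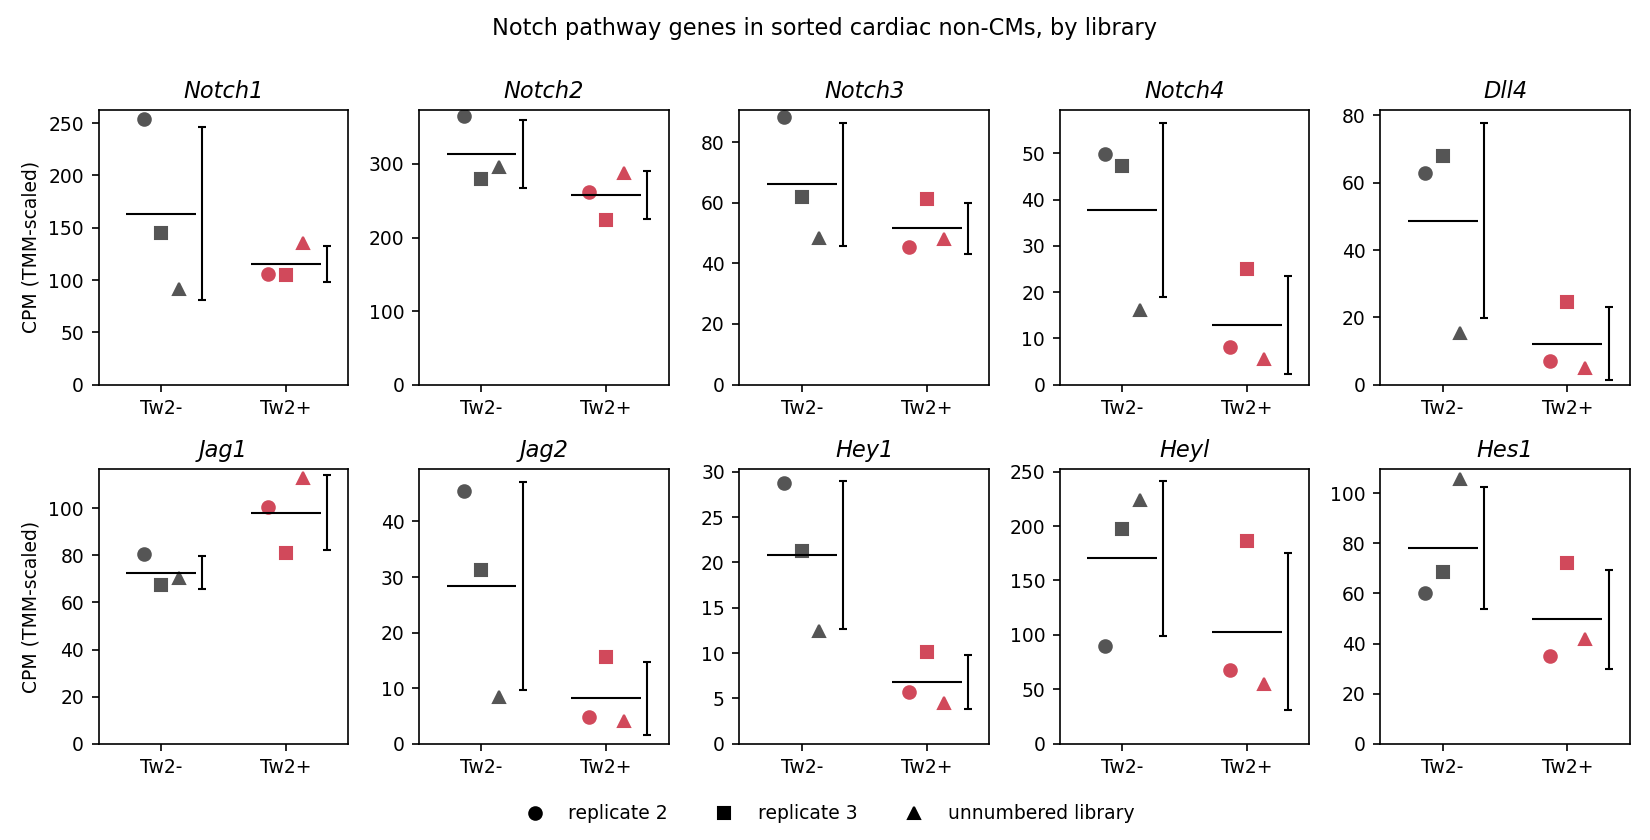
Level of each of the 10 genes (y axis, CPM from 0, linear) in the 3 Tw2- and 3 Tw2+ libraries; symbols mark the library, the line is the group mean and the bar to its right the SD. Hey1 and Jag1 are the 2 genes whose groups do not overlap. The Tw2+ 3 library (red square) lies above at least 1 Tw2- library in all genes but Notch2 and Hey1.

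The delta-like ligand Dll4, which is known from arterial and sprouting endothelium, spanned a wide range. It had 62.9 CPM in Tw2- 2, 67.9 CPM in Tw2- 3 and 15.3 CPM in the unnumbered Tw2- library, and 6.91 CPM in Tw2+ 2, 24.6 CPM in Tw2+ 3 and 4.94 CPM in the unnumbered Tw2+ library. Tw2- 2 and Tw2- 3 stood above all other libraries, while Tw2+ 3 lay above the unnumbered Tw2- library, so the groups overlapped. The log2 fold change was -1.999 (SE 0.68), 3.996-fold lower in Tw2+ as fitted. It missed the threshold in edgeR (adjusted p = 0.0710) but passed in DESeq2 (adjusted p = 0.0117) and in edgeR without a filter on low counts (adjusted p = 0.0300). It also passed without Tw2+ 3, at a log2 fold change of -3.03 (adjusted p = 0.00481), and without the unnumbered Tw2- library, at -2.45 (adjusted p = 0.0411). It did not pass in limma-voom (adjusted p = 0.0757), nor in edgeR with RLE (0.0827), upper-quartile (0.0863) or library-size scaling (0.0782).

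Jag2, the other Jagged ligand, followed the same order of libraries except that Tw2- 2 came before Tw2- 3. Its levels were 45.5, 31.2 and 8.48 CPM in Tw2-, and 4.75, 15.7 and 4.03 CPM in Tw2+. Again Tw2+ 3 exceeded the unnumbered Tw2- library and the groups overlapped. Its log2 difference of -1.79 (SE 0.66) had an adjusted p of 0.0868 by edgeR's test and of 0.0238 by DESeq2's. Without the filter on low counts the adjusted p was 0.0435. The log2 difference was -2.69 (adjusted p = 0.00925) without Tw2+ 3 and -2.26 (adjusted p = 0.0422) without the unnumbered Tw2- library.

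Jag1, the ligand that endothelial, smooth muscle and stromal cells can all make, was the 1 gene of the 10 fitted above 0. It had 80.6, 67.2 and 70.4 CPM in Tw2- and 100.8, 81.2 and 112.7 CPM in Tw2+. Every Tw2+ value exceeded every Tw2- value, though Tw2+ 3 cleared Tw2- 2 by under 1 CPM. The difference of 0.43 (SE 0.19) on the log2 scale did not pass in edgeR (adjusted p = 0.134), and it passed without Tw2+ 3 (log2 fold change 0.56, adjusted p = 0.0286). Scaling to the fibroblast markers moved the median of all tested genes to -0.51 and Jag1 to -0.10. Library size alone moved that median to -0.28 and Jag1 to 0.14, so that Jag1 lay above the median of all genes under each scaling given here.

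Levels per length place the ligands beside each other. In CPM per kb of annotated exons, Jag1 averaged 16.9 ± 2.73 in Tw2+ (SD, n = 3), Dll4 3.15 ± 2.80 and Jag2 1.17 ± 0.938. Jag1 stood above the other 2 in every Tw2+ library. Dll4 exceeded Jag2 within each of the 6 libraries, although their ranges across the Tw2+ libraries overlapped. In Tw2- the order changed, with Dll4 at 12.6 ± 7.53 and Jag1 at 12.5 ± 1.199 CPM per kb, which did not differ beyond their spread, and Jag2 at 4.08 ± 2.68. Of the summed level per length of the 3 ligands, Jag1 made up 80.2 ± 16.0% in Tw2+ and 47.3 ± 19.7% in Tw2-. The ranges of that share overlapped, from 61.8% in Tw2+ 3 to 91.2% in the unnumbered Tw2+ library and from 34.3% in Tw2- 3 to 69.9% in the unnumbered Tw2- library.

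**Figure D2:**
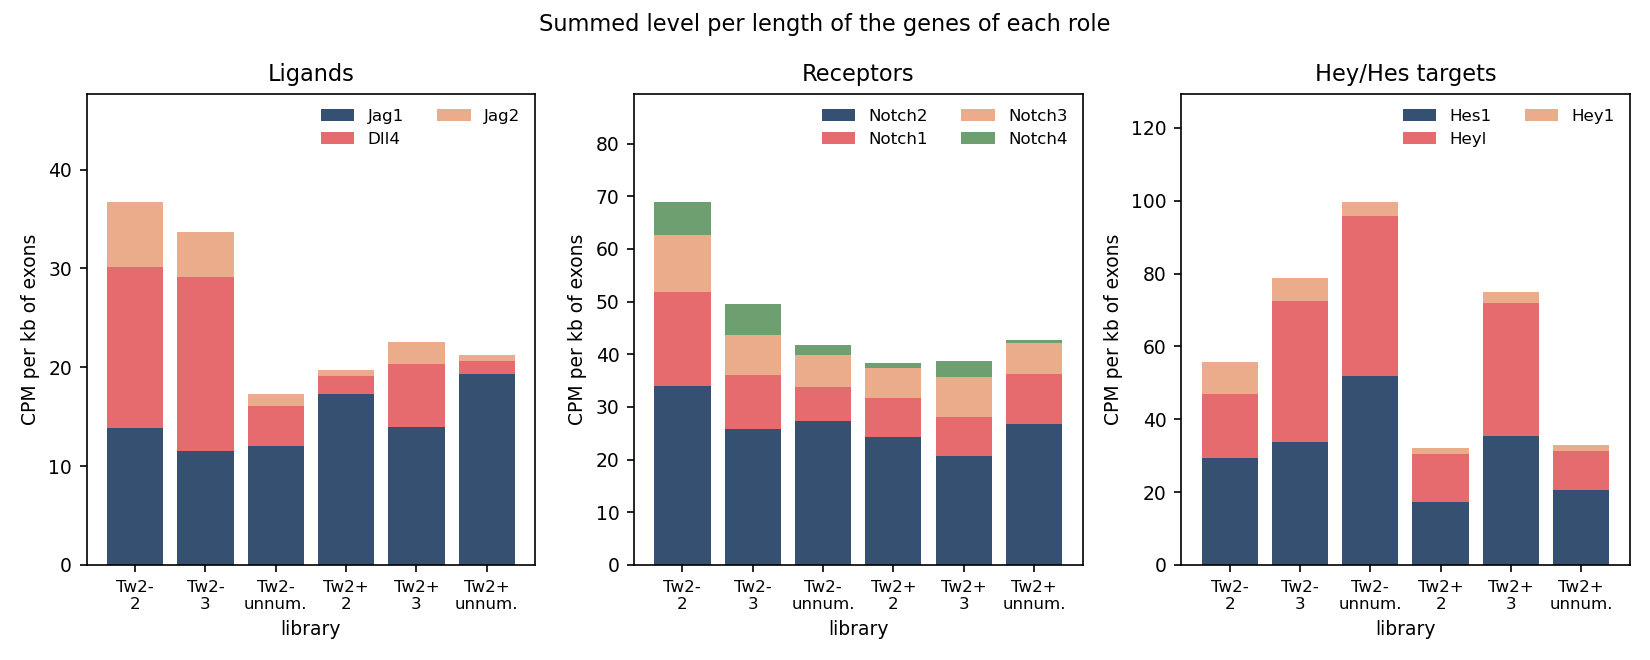
Summed level per length (y axis, CPM per kb of exons, linear from 0) of the 3 ligands, 4 receptors and 3 Hey/Hes targets in each library (x axis; unnum., unnumbered), with each gene a coloured segment. Jag1 makes up most of the ligand bar in the 3 Tw2+ libraries and in the unnumbered Tw2- library, and Notch2 is the largest receptor segment in all 6.

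Among the receptors, Notch4, which is largely restricted to endothelium, had a similar profile to Dll4 and Jag2. It had 49.9 CPM in Tw2- 2, 47.4 CPM in Tw2- 3 and 16.1 CPM in the unnumbered Tw2- library, and 8.12, 25.04 and 5.44 CPM in Tw2+. Tw2+ 3 was again above the unnumbered Tw2- library. A log2 difference of -1.55 (SE 0.59) missed the threshold in edgeR (adjusted p = 0.0956) and passed in DESeq2 (adjusted p = 0.0355) and without Tw2+ 3 (-2.47, adjusted p = 0.00467). Notch4 was not called in limma-voom (adjusted p = 0.0812), nor in edgeR without a filter on low counts (0.0519). In edgeR it also missed with RLE (0.110), upper-quartile (0.117) and library-size scaling (0.0983).

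Notch1, a receptor of endothelium and many other cell types, had overlapping groups. Its values were 253.7, 145.2 and 91.7 CPM in Tw2- and 105.4, 105.2 and 135.0 CPM in Tw2+. The Tw2- libraries included both the highest and the lowest of the 6 values. The log2 fold change was -0.51 (SE 0.34, adjusted p = 0.303 in edgeR), and omitting single libraries put it between -0.85 and -0.08, the latter without Tw2- 2.

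Notch2, the receptor with the highest level, varied least. It had 365.9, 279.0 and 295.4 CPM in Tw2-, and 262.5, 223.8 and 287.6 CPM in Tw2+. The highest library exceeded the lowest 1.64-fold, the smallest such ratio of the 10 genes, and the log2 fold change was -0.28 (SE 0.20, adjusted p = 0.339). Notch3, the receptor of mural cells, had 88.2, 61.9 and 48.3 CPM in the Tw2- libraries 2, 3 and unnumbered. The corresponding Tw2+ libraries had 45.3, 61.1 and 48.2 CPM, so that only Tw2- 2 stood apart. Its log2 fold change was -0.36 (SE 0.25, adjusted p = 0.324). Of 8 pericyte markers that do not include Notch3, 1 was called higher and 1 lower, beside 7.41% and 10.8% of all tested genes. Of the 8, 7 were fitted below 0 (median of the 8, -1.17 on the log2 scale). The higher one was Pdgfrb, which fibroblasts also make (0.84, adjusted p = 0.0344), at 255 CPM on average in Tw2- and 459 CPM in Tw2+. In Tw2+ it carried most of the summed pericyte level, and its call was lost with library-size or fibroblast scaling and without any 1 library other than Tw2+ 3. Abcc9, a potassium channel subunit of pericytes, was at -1.11 (adjusted p = 0.102).

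Per length of exons, Notch2 averaged 23.9 ± 2.98 CPM per kb in Tw2+, Notch1 8.09 ± 1.21, Notch3 6.37 ± 1.04 and Notch4 1.596 ± 1.32 (SD, n = 3). Notch2 exceeded each other receptor in every library, while the Tw2+ ranges of Notch1 and Notch3 overlapped. The order was the same in Tw2-, at 29.1 ± 4.28, 11.5 ± 5.80, 8.18 ± 2.51 and 4.69 ± 2.34 CPM per kb, with overlapping ranges for the neighbours Notch1 and Notch3 and for Notch3 and Notch4. Within each Tw2- library, however, Notch1 exceeded Notch3 and Notch3 exceeded Notch4. In Tw2+ 3 Notch3 (7.56 CPM per kb) lay above Notch1 (7.39). Notch2 made up 59.8 ± 5.48% of the summed receptor level per length in Tw2+ and 55.7 ± 8.67% in Tw2-.

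Hey1, a repressor induced by Notch in endothelium and other cells, was the called gene. It had 28.8 CPM in Tw2- 2, 21.2 CPM in Tw2- 3 and 12.4 CPM in the unnumbered Tw2- library, from 477, 395 and 158 counts. It had 5.70 CPM in Tw2+ 2, 10.2 CPM in Tw2+ 3 and 4.53 CPM in the unnumbered Tw2+ library, from 66, 125 and 45 counts. No Tw2+ value reached the lowest Tw2- value, with Tw2+ 3 and the unnumbered Tw2- library closest to each other. Hey1 was 3.05-fold lower in Tw2+, which is -1.61 on the log2 scale (SE 0.40, adjusted p = 0.0271 in edgeR). Hey1 was lower whichever of the 6 libraries was omitted, but the call was lost without Tw2- 2 (adjusted p = 0.0891), Tw2- 3 (0.0924), Tw2+ 2 (0.102) or the unnumbered Tw2+ library (0.0808), each in edgeR. It remained without Tw2+ 3 (adjusted p = 0.00386) or the unnumbered Tw2- library (0.0193).

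Hes1 and Heyl followed a different order of libraries. Hes1, the widely used Hes repressor, had 60.0, 68.8 and 105.8 CPM in Tw2-, and 35.0, 72.0 and 42.0 CPM in Tw2+. The unnumbered Tw2- library was the highest and Tw2+ 3 the second highest. The log2 fold change was -0.65 (SE 0.32, adjusted p = 0.168 in edgeR), and -1.02 (adjusted p = 0.0147) without Tw2+ 3.

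Heyl, the Hey family member known from vascular smooth muscle and pericytes, had 89.6, 197.3 and 224.1 CPM in Tw2-. In Tw2+ it had 67.6, 186.5 and 55.1 CPM. Tw2+ 3 was thus close to Tw2- 3, while Tw2- 2 was nearer to the other Tw2+ libraries. The log2 fold change was -0.72 (SE 0.49, adjusted p = 0.310), and -1.47 (adjusted p = 0.0119) without Tw2+ 3.

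Per length, Hes1 and Heyl were the most abundant of the targets. In Tw2- they averaged 38.4 ± 11.9 and 33.3 ± 13.9 CPM per kb, and in Tw2+ 24.4 ± 9.66 and 20.2 ± 14.2, without a difference beyond their spread in either group. Hey1 was at 6.37 ± 2.51 CPM per kb in Tw2- and 2.08 ± 0.910 in Tw2+ and lay below both in every library. Of the targets that were not among the 10 genes, Nrarp, a feedback inhibitor of Notch, also fell. It had 12.5, 11.3 and 3.93 CPM in Tw2- and 1.73, 2.93 and 1.31 CPM in Tw2+, without overlap (-2.21 on the log2 scale, SE 0.50, adjusted p = 0.0194). Like Hey1, Nrarp lost its call without Tw2- 2, Tw2- 3, Tw2+ 2 or the unnumbered Tw2+ library, with adjusted p from 0.0621 to 0.0801. Hey2 was at -1.15 (adjusted p = 0.0841), and Hes5, which had at most 2 counts in a library, was not tested. Of the other ligands Dll1 was at -1.25 (adjusted p = 0.130), and Dll3, with at most 4 counts in a library, was not tested.

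**Figure D3:**
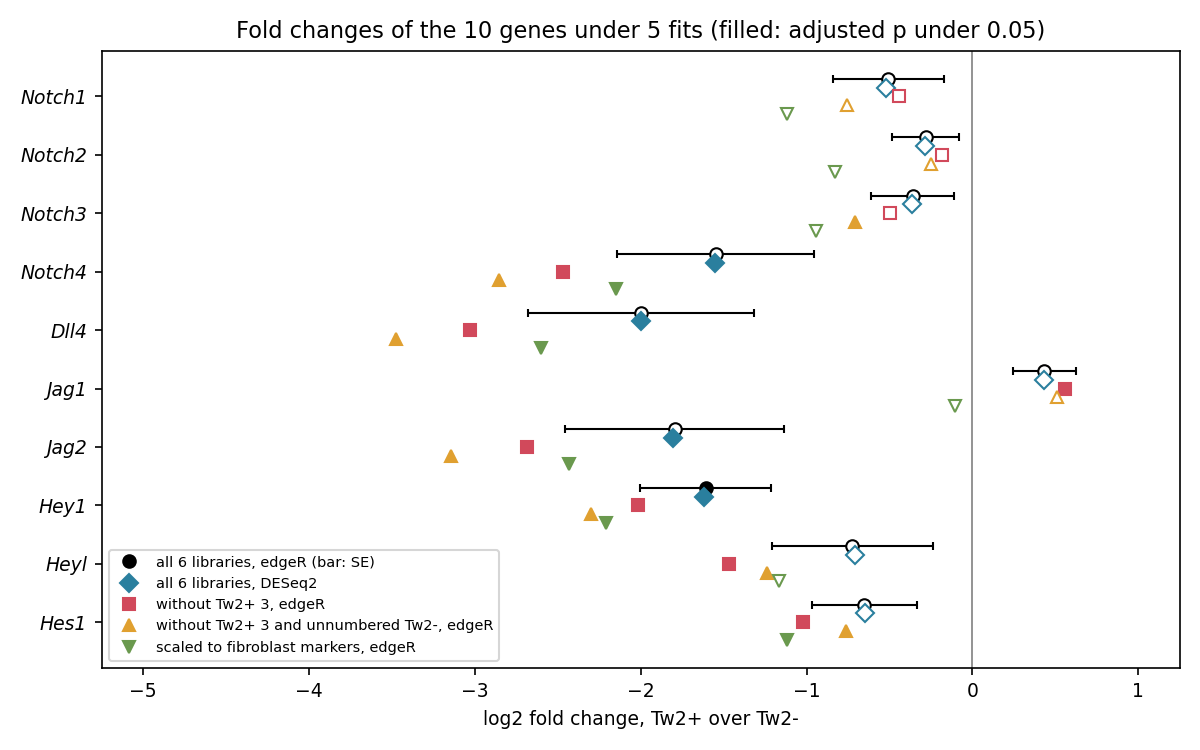
Log2 fold change (x axis, Tw2+ over Tw2-) of each gene (y axis) in 5 fits, with filled symbols for an adjusted p under 0.05 and a bar of 1 SE on the fit of all 6 libraries in edgeR. Hey1 is filled in all 5 fits, and Notch4, Dll4 and Jag2 in all but the edgeR fit of all 6 libraries with TMM scaling. The 5 fits are a selection, and fits not drawn include some without these calls. Notch4, Dll4 and Jag2 were not called in limma-voom or in edgeR with RLE, upper-quartile or library-size scaling. Without Tw2- 2, Tw2- 3, Tw2+ 2 or the unnumbered Tw2+ library, edgeR called none of these genes, nor Hey1.

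The levels of Notch4, Dll4 and Jag2 ran with the endothelial markers across the libraries. Tek and Eng had the highest levels of the 14 when the groups were averaged, although in Tw2- alone Cdh5 (264 CPM) and Kdr (235 CPM) exceeded Tek (221 CPM). The sum was also taken without Tek and Eng, a choice made after seeing that neither differed in the test. For the other 12 it was 2167, 2001 and 490 CPM in Tw2- and 181, 643 and 122 CPM in Tw2+. Notch4 and Jag2 had exactly this order of the 6 libraries, and Dll4 had it except that Tw2- 2 and Tw2- 3 were exchanged. Hey1 differed from it by an exchange of Tw2+ 3 and the unnumbered Tw2- library, and Notch3 by an exchange of Tw2+ 2 and the unnumbered Tw2+ library. Notch1 and Notch2 departed from it further, with the unnumbered Tw2+ library above Tw2+ 3. The middle places of Tw2+ 3 and the unnumbered Tw2- library are not particular to these genes. The main axis of variation over all tested genes (first principal component of log2 CPM) held 77.3% of the variance. On it the libraries lay at -69.2, -80.2 and -46.1 in Tw2- and at 72.2, 27.9 and 95.5 in Tw2+. How many genes share the order of the markers was not counted. The likeness of 2 genes was measured as the root-mean-square difference of their log2 CPM over the 6 libraries, each gene centred on its own mean. By that measure Notch4 and Jag2 (0.25), Notch4 and Dll4 (0.27) and Dll4 and Jag2 (0.27) were among the 4 closest of all pairs of the 10 genes, with Notch1 and Notch3 (0.27) the other.

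**Figure D4:**
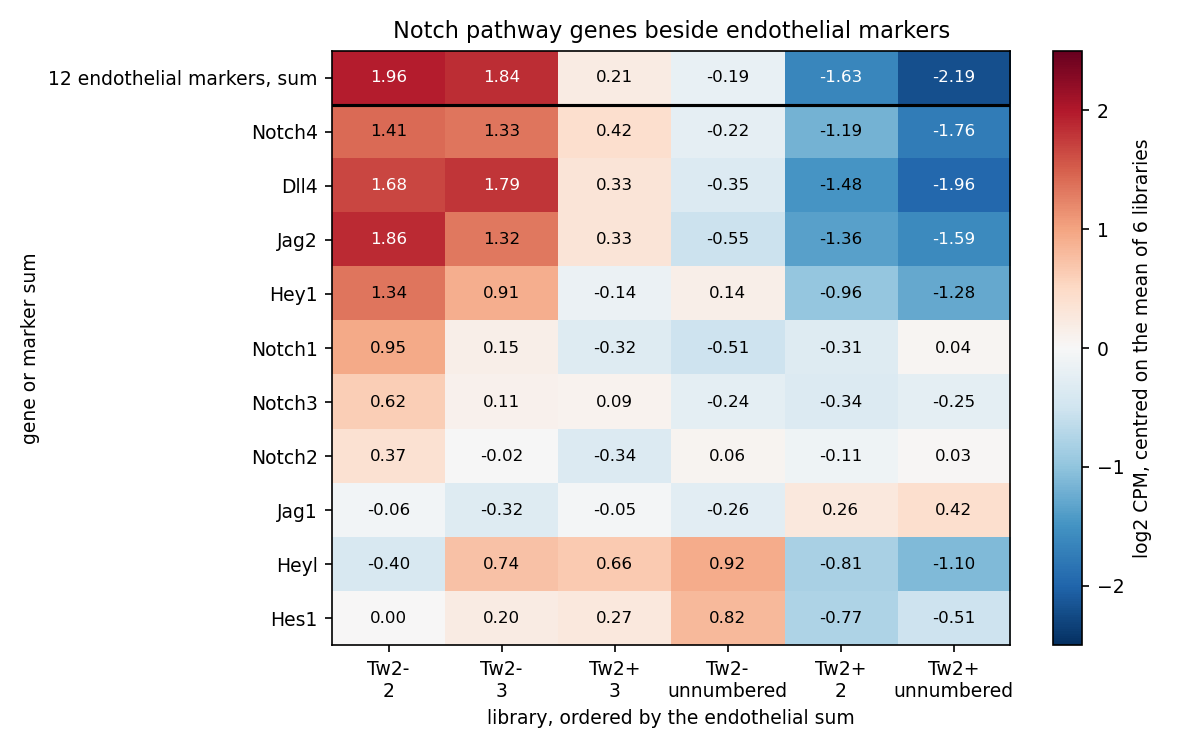
Log2 CPM centred on each row's mean over the 6 libraries (colour and number) for the sum of 12 endothelial markers and for each gene (y axis), with libraries ordered by the endothelial sum (x axis). Notch4, Dll4 and Jag2 are high on the left and low on the right as the markers are, from 1.41 to -1.76 for Notch4. Notch1, Notch2, Jag1, Heyl and Hes1 have another order.

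The fold changes of the markers themselves were of a like size. Of the 14, 0 were called higher and 4 lower, with a median log2 fold change of -2.23, beside 10.8% of all tested genes called lower. The count of lower markers was 1 with RLE, upper-quartile or library-size scaling, where 9.98%, 10.3% and 13.0% of all genes were lower. It was 9 in DESeq2 (13.9% of all genes lower), 12 without a filter on low counts (9.72%) and 13 with fibroblast scaling (22.9%). VE-cadherin (Cdh5) was at -2.44 (SE 0.73, adjusted p = 0.0497) and the VEGF receptor Kdr at -2.58 (SE 0.75, adjusted p = 0.0446), both named after their values were seen and neither called with those 3 scalings, whereas Tek was at -0.30 (adjusted p = 0.335) and Eng at -0.02 (adjusted p = 0.951). Without Tw2+ 3, 12 of the 14 were called lower, where 21.4% of all genes were. With Tw2- 2, Tw2- 3, Tw2+ 2 or the unnumbered Tw2+ library left out 0 of the 14 were, where 6.10% to 6.53% of all genes were. Expressed as a percent of the summed level of the 14 markers, Dll4 was 2.02 ± 0.553 in Tw2- and 1.12 ± 0.595 in Tw2+ (SD, n = 3), Notch4 was 1.64 ± 0.139 and 1.21 ± 0.557, and Jag2 was 1.16 ± 0.387 and 0.772 ± 0.329. Hey1 was 0.970 ± 0.183 percent of it in Tw2- and 0.700 ± 0.0446 in Tw2+.

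In two-sided exact permutation tests of the log2 of this ratio over the 3 against 3 libraries, where the smallest possible p is 0.1, the p was 0.2 for Dll4, 0.4 for Notch4, 0.3 for Jag2 and 0.1 for Hey1. Over all 10 genes the Benjamini-Hochberg adjusted p lay between 0.4 and 0.7. The choice of markers set the sign. Relative to the 12 markers without Tek and Eng, the log2 ratio of Tw2+ over Tw2- was 0.31 for Dll4, 0.71 for Notch4, 0.63 for Jag2 and 0.79 for Hey1, against -0.93, -0.54, -0.61 and -0.46 with all 14. With the 12 markers the exact permutation p was 0.1, the smallest possible, for Dll4, Notch4 and Jag2 and 0.2 for Hey1, and over all 10 genes the adjusted p lay between 0.25 and 0.4. Leaving out 2 markers because they did not differ raised every ratio, so p-values with the 12 markers cannot serve as a test. The ratio of Jag1 to the markers was higher in Tw2+ with either list, by 1.59 with 14 markers (exact permutation p = 0.2) and 2.83 with 12 (p = 0.2, exact permutation). The part of the endothelial content in the differences of Notch4, Dll4, Jag2 and Hey1 was not tested beyond these ratios.

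The upstream sequences of Dll4, Jag2 and Notch4 are shown because these 3 genes varied together across the libraries. They come from RefSeq on GRCm38.p6, cover the 250 bases before the start that RefSeq annotates and are written 5′ to 3′ on the gene's strand, with matches to CAGGAA, a core bound by ETS factors, in capitals on either strand (TTCCTG is its reverse complement). GENCODE M21 starts 2 of these genes farther upstream, so that all 250 bases shown for Jag2 and the last 27 of Notch4 lie inside the gene as GENCODE draws it, and 0 of those of Dll4.
Dll4 upstream, chr2:119325534-119325783, + strand: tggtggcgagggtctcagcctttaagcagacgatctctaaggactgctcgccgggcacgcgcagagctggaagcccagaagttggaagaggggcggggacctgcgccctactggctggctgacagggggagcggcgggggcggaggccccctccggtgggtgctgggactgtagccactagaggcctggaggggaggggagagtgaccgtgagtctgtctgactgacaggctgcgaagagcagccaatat
Jag2 upstream, chr12:112929496-112929745, - strand: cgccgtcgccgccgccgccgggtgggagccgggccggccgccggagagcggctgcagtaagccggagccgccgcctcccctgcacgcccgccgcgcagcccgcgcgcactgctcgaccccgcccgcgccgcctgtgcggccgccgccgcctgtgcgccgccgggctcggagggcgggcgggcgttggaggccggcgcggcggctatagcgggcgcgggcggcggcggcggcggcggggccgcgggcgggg
Notch4 upstream, chr17:34564045-34564294, + strand: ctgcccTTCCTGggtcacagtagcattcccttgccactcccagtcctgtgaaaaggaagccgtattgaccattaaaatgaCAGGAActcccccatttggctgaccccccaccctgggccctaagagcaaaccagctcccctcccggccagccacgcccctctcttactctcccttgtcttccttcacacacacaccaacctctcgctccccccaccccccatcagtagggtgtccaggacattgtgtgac
Of the 10 genes, 7 (all but Hey1, Heyl and Hes1) had an entry in this promoter table. In windows of 300 bases that also include the first 50 after the start, both strands were searched for the RBPJ core TGGGAA, for the ETS cores spelled CAGGAA or spelled CCGGAA, for the GATA core AGATAA and for the forkhead core TGTTTA. The core CAGGAA occurred in the windows of Notch1 and Notch4, and no match overlapped one to another motif. The other 4 motifs had no match in the 7 windows. Among all 32851 promoter windows, 25.6% held TGGGAA, 30.6% CAGGAA, 14.9% CCGGAA, 11.2% AGATAA and 13.4% TGTTTA. The windows of the 7 genes were rich in G and C, from 55.7% for Jag1 to 86.0% for Jag2, against a median of 52.7% over all windows.

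The genes lie apart in the genome (GRCm38, GENCODE M21). Notch1 (chromosome 2, 26457903 to 26516663, - strand), Dll4 (119325784 to 119335962, + strand) and Jag1 (137081456 to 137116644, - strand) are on chromosome 2. Notch2 (98013527 to 98150361, + strand) and Hey1 (8663359 to 8667256, - strand) are on chromosome 3, and Notch3 (32120820 to 32166852, - strand) and Notch4 (34564268 to 34588503, + strand) are on chromosome 17. Jag2 is on chromosome 12 (112907819 to 112929776, - strand), Heyl on chromosome 4 (123233556 to 123249875, + strand) and Hes1 on chromosome 16 (30064384 to 30067796, + strand). Antisense models share 9.76% of the exonic length of Notch1, 6.03% of that of Notch3 and 5.56% of that of Dll4, and a model on the same strand shares 5.02% of that of Notch2. Reads in those stretches cannot be assigned, because it is not known whether counting used strand. No overlap was annotated for the exons of the other 6 genes.

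The genes whose profiles were most like each of the 10 were sought among 8691 tested genes averaging at least 10 CPM, by the same root-mean-square difference over 6 libraries. Dll4 was nearest to Cav1 (0.060) and Erg (0.10), Notch4 to Cd200 (0.11) and Ablim3 (0.13), and Jag2 to Gata2 (0.17) and Dysf (0.17). Hey1 was nearest to Plxnd1 (0.11) and Atp8a1 (0.15), Heyl to B3gnt8 (0.094) and Ston1 (0.14), and Hes1 to Ppl (0.094) and Decr1 (0.14). Jag1 was nearest to Nrd1 (0.031) and Cul1 (0.037) and Notch2 to Zbtb18 (0.039) and Rnf41 (0.057). Notch1 was nearest to Ampd3 (0.097) and Pkp4 (0.14), and Notch3 to Klf16 (0.078) and Pim3 (0.094). A flat gene has many close neighbours, so these distances compare poorly between genes of different spread.

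Beyond ligands, receptors and targets, 54 genes that modify, cut, traffic or serve Notch proteins were examined in 5 lists, and 51 were tested. Of these, 3 were called higher (5.88%) and 7 lower (13.7%), with a median log2 fold change of -0.02, beside the 7.41% and 10.8% of all tested genes.

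The Fringe enzymes, which add sugars to Notch and alter which ligands it answers, did not all change. Lfng fell from 67.4, 37.0 and 21.1 CPM in Tw2- to 4.93, 5.204 and 1.91 CPM in Tw2+. That was 10.3-fold lower (-3.37 on the log2 scale, SE 0.50, adjusted p = 0.00271), without overlap, and it was called whichever of the 6 libraries was omitted. Mfng fell by 2.92 on the log2 scale (SE 0.84, adjusted p = 0.0432), and it was called on 2 of the 6 omissions. Rfng was at 0.0033 (adjusted p = 0.993), and the fucosyltransferase Pofut1, on which Fringe action depends, was at -0.01 (adjusted p = 0.977). Of the 6 glycosylation genes 0 were called higher and 2 lower.

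Among 15 genes of ligand and receptor trafficking, 2 were higher and 3 lower. Neurl3, of the Neuralized family of ubiquitin ligases, had 96.1, 57.7 and 43.7 CPM in Tw2- and 5.19, 5.61 and 4.33 CPM in Tw2+. It was 13.01-fold lower in Tw2+ (-3.70 on the log2 scale, SE 0.33, adjusted p = 0.000214). Neurl1a, the relative that acts on ligand endocytosis, was at -3.85 (SE 0.62, adjusted p = 0.00415) and the ubiquitin ligase Dtx1 at -2.88 (SE 0.48, adjusted p = 0.00455), both at low levels of 5.22 and 3.30 CPM on average in Tw2-. In Tw2+ Neurl1a had 1, 7 and 4 counts and Dtx1 had 5, 8 and 2, so the size of their falls rests on few reads. Neurl3, Neurl1a and Dtx1 were each called whichever of the 6 libraries was omitted. Lfng, Neurl3, Neurl1a and Dtx1 were low in Tw2+ 3 as in the other Tw2+ libraries, and so were the summed markers of several blood cell types. Macrophage markers were at 223, 325 and 137 CPM in Tw2+ (at least 2588 CPM in Tw2-), granulocyte markers at 2.85, 2.60 and 2.42 CPM (at least 153 CPM in Tw2-), and B cell markers at 1.47, 1.54 and 1.31 CPM (at least 19.5 CPM in Tw2-). The part of those cells in these differences was not tested.

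Numbl, a relative of the Notch inhibitor Numb, was higher in Tw2+. It had 87.8, 66.8 and 90.9 CPM in Tw2- and 286.4, 142.9 and 247.5 CPM in Tw2+, a log2 difference of 1.46 (SE 0.28, adjusted p = 0.00905). The call was lost without Tw2- 3 (adjusted p = 0.0522) and with scaling to the fibroblast markers (log2 fold change 0.93, adjusted p = 0.0649). Fbxw7, which marks the Notch intracellular part for breakdown and was named after its values were seen, rose as well (log2 fold change 1.11, SE 0.31, adjusted p = 0.0423), and of the 6 omissions of a library its call held on 1, that of Tw2+ 3. That call was also lost in limma-voom, with RLE or library-size scaling, and with fibroblast scaling (log2 fold change 0.55, adjusted p = 0.320). Numb itself was at -0.04 (adjusted p = 0.882).

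The cleavage machinery and the nuclear complex held 1 call between them. Of 10 cleavage genes 0 were called higher and 1 lower. That gene was Aph1c, a subunit of gamma-secretase, at -2.48 (SE 0.43, adjusted p = 0.00601) from 12.4 ± 7.10 CPM in Tw2- to 2.22 ± 0.282 CPM in Tw2+. Aph1c has a close copy in Aph1b, which was at -0.57 (adjusted p = 0.170), and reads of these copies may be shared. The convertase Furin, with the highest level of the list, was at 0.65 (adjusted p = 0.160). Of 16 genes of the nuclear complex edgeR called 0 in either direction, 3 (Rbpj, Maml1 and Tle1) had an unadjusted p under 0.05, where 36.7% of all tested genes did, and DESeq2 called 1 higher. Rbpj was lower in all 3 Tw2+ libraries (78.9, 61.8 and 77.3 CPM in Tw2+ against 101.2, 97.2 and 90.5 CPM in Tw2-), a log2 difference of -0.41 (SE 0.18, adjusted p = 0.133). Without Tw2+ 3, 4 of the 16 were called higher and 1 lower, in a fit that called 20.7% of all genes higher and 21.4% lower.

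Among 7 proteins described as non-standard Notch ligands, 4 were tested. Mfap5, a microfibril protein of connective tissue, rose from 221.9, 212.3 and 351.4 CPM in Tw2- to 920.8, 485.0 and 1217 CPM in Tw2+, a log2 difference of 1.74 (SE 0.36, adjusted p = 0.0140). The call was lost without Tw2- 2 (adjusted p = 0.0589) or Tw2- 3 (0.0743). Egfl7, a secreted endothelial protein that is also 1 of the 14 endothelial markers, fell by 2.53 on the log2 scale (SE 0.66, adjusted p = 0.0325) and was called on 2 of the 6 omissions of a library.

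**Figure D5:**
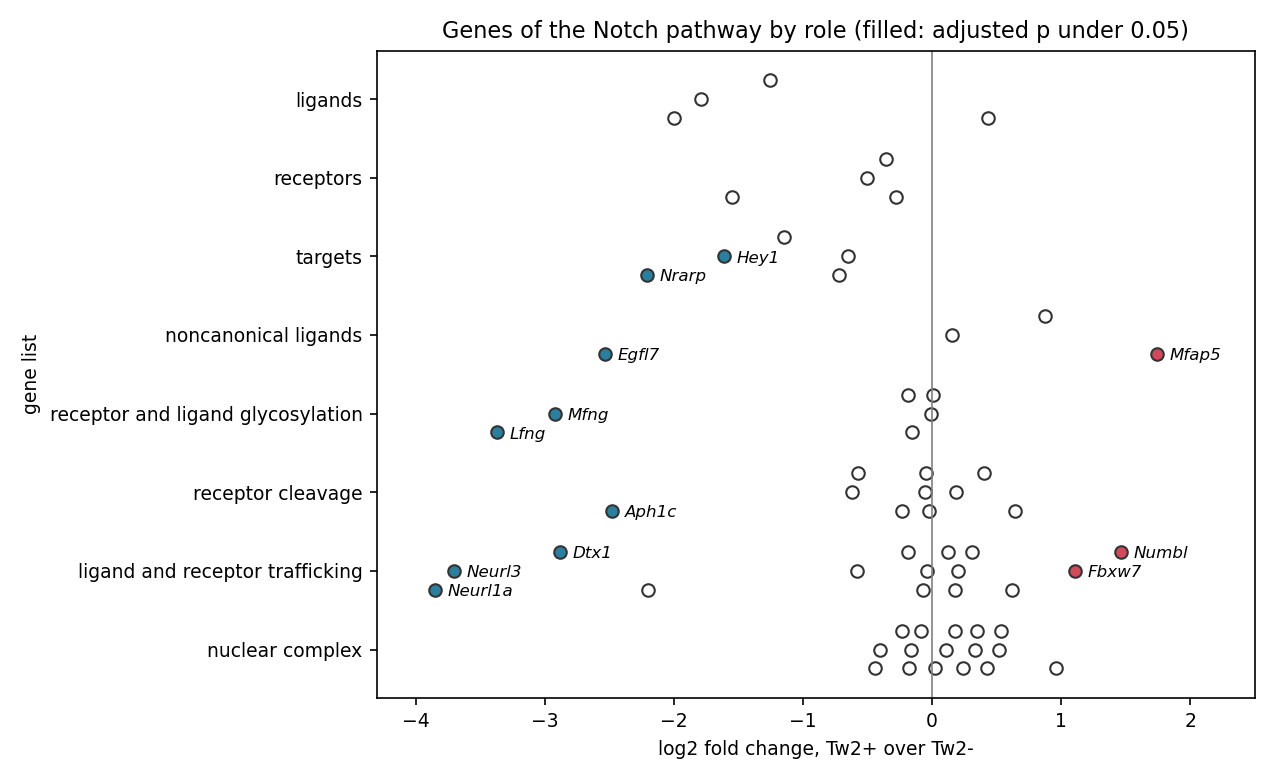
Log2 fold change (x axis, Tw2+ over Tw2-) of every tested gene in the 8 Notch pathway lists (y axis), 1 circle per gene, shifted vertically for legibility; filled circles have an adjusted p under 0.05, blue for lower and red for higher, and carry the gene's name. Lfng, Neurl3 and Neurl1a (at most 7 counts in a Tw2+ library) lie farthest to the left and Mfap5 and Numbl farthest to the right.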

How the data were processed

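RNA sequencing of sorted cardiac non-CMs gave 6 libraries, 3 Tw2+ and 3 Tw2-. The authors deposited raw counts, whole numbers per gene symbol and library. The submitters' processing notes name TopHat2 2.0.0 and DESeq2 1.6.3, and as builds GRCm38 and mm10, with no role for any. The sources used here do not give the counting program, annotation or strand setting. Column names gave 4 libraries a replicate number and 2 a group only, with 0 value columns unused. All pairs within a group exceeded sampling noise (lowest chi-square over its degrees of freedom 25.3), and each library counts as 1 sample.

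Counts were tested with edgeR 4.0.16 in R 4.3.3 (quasi-likelihood test, TMM factors, filterByExpr at a minimum count of 10, 13180 genes), with Benjamini-Hochberg adjustment over all of them; SE is the log2 fold change divided by the root of the F statistic. Alternatives were DESeq2 1.42.0, limma-voom (limma 3.58.1), other scalings and filters, and each library left out; with 2 libraries left in a group their spread is estimated with the other group. Levels per length use the union of GENCODE M21 exons. The tests were checked on simulated counts that gave every gene the same dispersion and held no library intermediate between the groups, unlike these data.

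The members and gene lists were chosen with earlier results of these data known. From each pathway list the genes named are up to 4 called ones by smallest adjusted p and the one with the highest level; Dll1, Dll3, Hey2, Hes5, Rfng, Numb, Aph1b, Rbpj, Maml1, Tle1, Cdh5, Kdr, Sema3g, Sox17 and Fbxw7 were added after their values were seen. A gene that the rule takes is not reported here. From marker lists the rule takes the 2 with the highest level, not all of which are named here. Likeness takes 2 genes per member. Lists of lymphatic, endocardial, arterial, smooth muscle, granulocyte, B cell, epicardial and Schwann cell markers were counted and are given in the closing section. The p-values measure the spread between these libraries.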

Additional observations from a re-analysis of the deposited data

How the results depend on the processing

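With alternatives to the edgeR fit, the number of the 10 genes called lower in Tw2+ was 4 in DESeq2, 5 with scaling to the fibroblast markers, 3 without a filter on low counts, 0 at an adjusted p under 0.01 and 7 with Tw2+ 3 and the unnumbered Tw2- library both removed, against 1 in the main fit. Hey1 alone was called in limma-voom and with RLE, upper-quartile or library-size scaling. With 1 library left out it ranged from 0 to 6, and the number called higher from 0 to 1. Over all genes, 976 were higher and 1419 lower. The number higher was 1575 in DESeq2, 404 with library size alone, 117 with fibroblast scaling, 90 at an adjusted p under 0.01 and 2565 without both libraries, and from 81 to 2801 with 1 library left out. The number lower was 3014 with fibroblast scaling, 701 at an adjusted p under 0.01 and 3068 without both libraries, and from 811 to 2906 with 1 left out. The lower share of calls was 59.2% in the main fit, 80.9% with library size alone and 96.3% with fibroblast scaling. Why these counts move was not tested.

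Sample titles number the libraries 1 to 3 in each group, but column names carry only 2 and 3, so a block could use 2 pairs, and nothing says that a number marks a shared mouse or day. With the number as a replicate block on the 4 numbered libraries, 5 of the 10 genes were called lower (Notch1 at -0.91, adjusted p = 0.0141, and Notch4, Dll4, Jag2 and Hey1), as were Rbpj (0.0405) and Dll1 (0.0260) and 7 of 8 pericyte markers, against 2 of the 10 on the same libraries without the block, a setting added after the data were seen. Over all genes the block gave 1300 higher and 2203 lower, and the 4 libraries without it 115 higher and 1195 lower. Deviations from the group means correlated at 0.20 for the libraries numbered 2 and 0.56 for those numbered 3. For Tw2- 2 with Tw2+ 3 and with the unnumbered Tw2+ library the correlations were -0.17 and 0.077. For Tw2- 3 with Tw2+ 2 and with the unnumbered Tw2+ library they were -0.42 and -0.41. Whether the numbers mark a pairing was not tested.

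Signs reversed as follows. Jag1 was at -0.10 with fibroblast scaling. Pofut1 was at 0.18 with the replicate block, at 0.19 on the same libraries without it, and between -0.18 and 0.17 with 1 library left out. Eng lay between -0.22 and 0.092 with 1 left out. Relative to the endothelial markers without Tek and Eng, Notch4 (0.71), Dll4 (0.31), Jag2 (0.63) and Hey1 (0.79) turned positive, and Heyl relative to all 14 ranged from -0.34 to 1.04 with 1 library left out. Each of the 10 genes had at least 40 counts in each library, and whether depth limited their calls was not tested.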

Other observations

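Other vascular and stromal markers give the setting of the Notch genes. Beside the counts that follow, edgeR called 10.8% of all tested genes lower and 7.41% higher, and DESeq2 13.9% and 11.9%. Without Tw2+ 3 edgeR called 21.4% lower and 20.7% higher. Of 8 arterial endothelial markers, 0 were called in either direction by edgeR, and their median log2 fold change was -1.97; DESeq2 called 4 of them lower, and without Tw2+ 3 edgeR called 5 lower and 1 higher. Those with the highest levels, the netrin receptor gene Unc5b at 0.51 (adjusted p = 0.106) and the ephrin gene Efnb2 at 0.44 (adjusted p = 0.513), were the 2 fitted above 0. The other 6 were fitted below 0, among them Sema3g at -2.35 (adjusted p = 0.0631) and Sox17 at -1.82 (adjusted p = 0.0750), both named after their values were seen. Of 5 endocardial markers 1 was higher and 1 lower, and the transcription factor Nfatc1 rose (1.29, adjusted p = 0.0491) while the clearance receptor Npr3 was at -1.60 (adjusted p = 0.103). None of the 5 was called higher in edgeR when any 1 library other than Tw2+ 3 was left out, nor in limma-voom, with robust dispersion or with RLE, upper-quartile, library-size or fibroblast scaling. Of 6 lymphatic markers 1 was higher and 4 lower, the higher being Pdpn (1.83, adjusted p = 0.0169), which stromal cells also make.

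Of 6 tested smooth muscle markers 0 were higher and 3 lower, with a median of -0.71. All 6 granulocyte and all 5 tested B cell markers were lower. Of 8 epicardial and mesothelial markers edgeR called 0 and DESeq2 1 higher, and of 2 tested Schwann cell markers 1 was lower.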
